A study of Homo sapiens with 6 samples.

Results

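RNA of the cervical squamous carcinoma line ME-180 was compared between a library labelled p63 knockdown and its control, 2 of the 6 samples of the series. All 15189 transcript rows of the deposited ME-180 count table entered, and each of the 8798 gene names was represented by its most abundant transcript row. The control carried the empty hairpin vector pLKO and the other library the hairpin named shp63; both came from cells at passages 13-15, with 1 library per group. No source used here gives the hairpin's target sequence, the time after its introduction or the number of clones or cultures. The rows summed to 10804272 counts for the control and 10046579 for the library labelled knockdown, and levels were scaled to 1000000 counts of these totals (CPM). Several common genes and many members of the lists used below have no row, so a gene without one is not discussed as silent. With 1 library a side there is no replicate check and no p-value: ratios are sizes, 95% intervals cover counting error only, and reduced p63 cannot be told apart from any other difference between the libraries.

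p63, a relative of p53 that acts on transcription, is made in a full-length form and a delta N form from separate promoters of TP63. In stratified epithelia such as skin and the outer cervix, the delta N form marks basal cells. There it is known to bind genes of the basal keratins, of the hemidesmosomes that fix basal cells to the basement membrane, and of the desmosomes that join neighbouring cells.

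TP63, which encodes p63, was nearly absent from the library labelled knockdown. All 5 TP63 transcript rows lay between 393 and 5619 counts for the control and between 0 and 6 for the other library, and the rows of 1 gene share reads. Its relative TP73 was closer, with 198 against 81 counts, the control first here and below (log2 ratio -1.09, on the scale of CPM plus 1, labelled knockdown over control). The epithelial label of the control held, with KRT5 alone taking 6.29% of all its counts. In the library labelled knockdown KRT5 took 0.00238% with 239 counts and KRT14 had 30 counts against 46445, so these defining markers of a squamous line were far lower there. LIN28B, an RNA-binding protein of fetal cells that keeps let-7 from maturing, had 2 against 1981 counts. ALDH1L2, a mitochondrial folate enzyme, had 4 against 2501.

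The stretches of 250 bases before the RefSeq start of marker genes are shown for their CG content. As a group, genes lower in the library labelled knockdown were poorer in CG pairs. Genes higher there were close to the rest, so LIN28B does not stand for them. The stretches are from GRCh38.p14, 5′ to 3′, with each CG pair in capitals. The TP63 start in that table is the outermost one of the gene and not that of the delta N form.
KRT5, chr12:52520395-52520644, minus strand: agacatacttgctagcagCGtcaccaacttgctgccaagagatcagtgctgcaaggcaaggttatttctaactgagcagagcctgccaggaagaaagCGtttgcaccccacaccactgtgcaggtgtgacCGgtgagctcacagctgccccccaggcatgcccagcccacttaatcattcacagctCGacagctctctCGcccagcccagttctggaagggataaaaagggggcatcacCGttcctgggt
TP63, chr3:189631139-189631388, plus strand: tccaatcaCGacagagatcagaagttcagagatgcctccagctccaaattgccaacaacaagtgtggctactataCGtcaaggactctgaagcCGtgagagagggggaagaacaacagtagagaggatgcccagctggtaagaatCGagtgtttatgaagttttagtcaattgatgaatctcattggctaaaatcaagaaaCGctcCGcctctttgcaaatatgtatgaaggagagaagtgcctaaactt
LIN28B, chr6:104940715-104940964, plus strand: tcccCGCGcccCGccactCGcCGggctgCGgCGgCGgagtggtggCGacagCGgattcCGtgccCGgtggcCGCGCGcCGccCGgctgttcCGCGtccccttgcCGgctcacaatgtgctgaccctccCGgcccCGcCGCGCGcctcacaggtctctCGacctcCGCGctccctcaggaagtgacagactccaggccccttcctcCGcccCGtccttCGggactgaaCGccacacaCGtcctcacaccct
The stretch before KRT5 held 6 CG pairs, that before TP63 also 6, and that before LIN28B 33.

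Nearly as many genes differed at least 2-fold between the libraries as did not. The floor of 1 CPM in a library was passed by 6783 genes, of which 1914 (28.2%) were at least 2-fold higher in the library labelled knockdown and 1400 (20.6%) at least 2-fold lower. Their median log2 ratio was 0.28. TMM scaling, by trimmed means, took that shift away and moved the higher genes' share of those past 2-fold from 57.8% to 47.4%. The lower side held the larger distances: 71 genes were at least 64-fold lower on the CPM plus 1 scale and 13 at least 64-fold higher. A level of 100 counts was reached by 4983 genes, and 180 of them (3.61%) reached it in the control with 3 or fewer counts in the other library. The reverse was seen for 109 (2.19%). Counts in the lists and families below are to be read beside the shares of 28.2% higher and 20.6% lower over all genes.

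**Figure D1:**
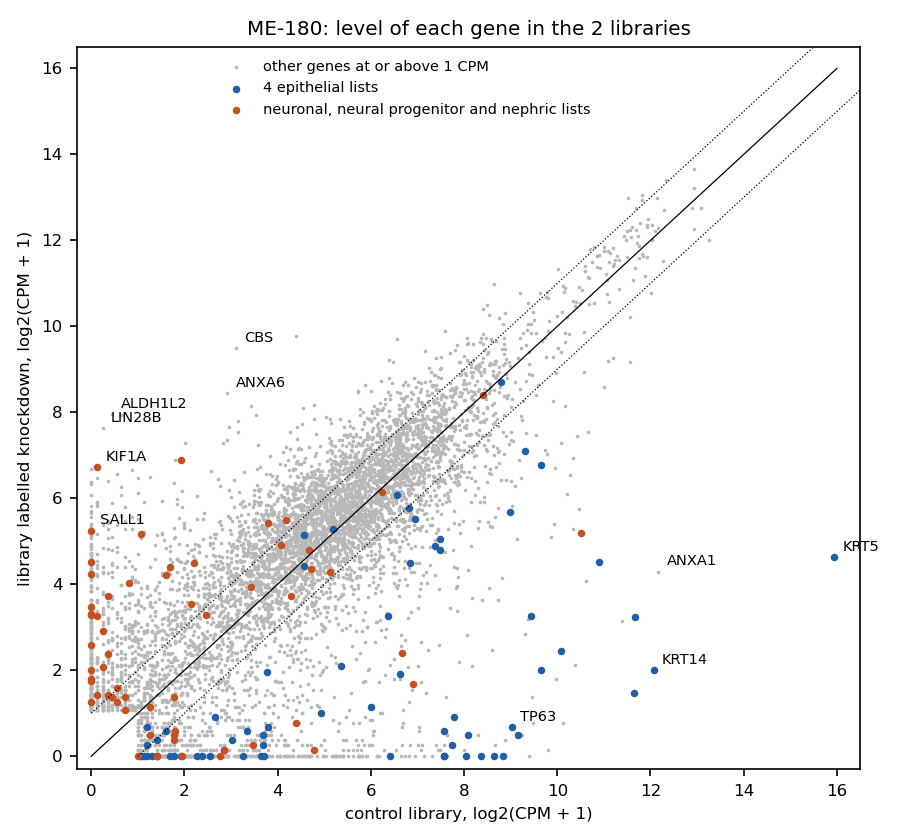
Each point is 1 of the 6783 genes at or above 1 CPM, with log2(CPM + 1) in the ME-180 control on the x axis and in the library labelled knockdown on the y axis. Blue points are members of 4 epithelial lists and orange points of the neuronal, neural progenitor and nephric lists; the solid line marks equal levels and the dotted lines 2-fold. Most epithelial genes lie below the diagonal, many of them on the floor of the plot, while part of the orange points lie on its left edge.

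Genes of basal attachment were lower well beyond the leading keratins. LAMB3, a chain of the laminin that lies under basal cells, had 3571 against 0 counts, at least 1107-fold lower when the 0 is set to 3 counts. ITGB4, the integrin subunit of hemidesmosomes, had 8658 against 30 counts, 268-fold lower (188 to 398). Its partner ITGA6 had 5506 against 505, 10.1-fold lower (9.25 to 11.1), and PLEC, which links hemidesmosomes to keratin, 1912 against 324, 5.49-fold lower (4.88 to 6.19). Of 8 hemidesmosome and laminin genes at the floor 7 were lower, and the median log2 ratio was -3.51.

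CD44, the hyaluronan receptor, was near 0 in every row. Its 8 transcript rows ranged from 205 to 2828 counts for the control and from 0 to 3 for the library labelled knockdown. Of 30 genes in the basal list 12 have a row. PDPN, a membrane glycoprotein of basal cells, was the 1 of these 12 under 2-fold, with 245 against 205 counts (-0.15). Among the genes of cell contacts, DSP, the plaque protein of all desmosomes, kept 1553 of 11675 counts (-2.80) and PKP2 300 of 1193 (-1.85). Of 5 connexins at the floor, which form gap junctions, 1 was higher and 3 lower (1 and 4 with TMM scaling). GJB6 had 5051 against 3 counts. GJA1 had 4071 against 1812 (-1.06), and GJC1 was 2.74-fold higher (2.41 to 3.12) with 329 against 837. The skin-type connexin GJB6 thus stood near 0. The widely expressed GJA1 was lower too but kept 1812 counts, and GJC1 was higher.

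All 18 keratins at the floor were lower, by a median of -2.85 on the log2 scale against 0.28 over all genes. Beyond the basal ones they included KRT80 (1462 against 2 counts, 680-fold lower, 188 to 5618) and KRT9, the keratin of palm and sole skin (301 against 0, at least 93.3-fold lower). The hair keratins KRT32, KRT36 and KRT84 had 56, 87 and 61 counts against 0. KRT10, the keratin of suprabasal cells, had 6802 against 1362 counts (-2.21). KRT18 of simple epithelia had 8678 against 1094 (-2.87). These last 2 were the keratins with most counts left, and 12 of the 18 had 3 or fewer. Several keratins have close copies, so reads can be shared between them.

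Of 47 genes listed as direct targets that p63 raises, 19 have a row. Of these 19, 17 were lower and 1 was higher, with a median log2 ratio of -7.57. JAG1, a Notch ligand, had 4861 against 167 counts, 27.1-fold lower (23.2 to 31.8). SATB1, a chromatin organiser of the epidermis, had 156 against 57 (-1.21). The exceptions were HK2, a hexokinase, with 2774 against 2670 counts, and ADA, adenosine deaminase. ADA was 5.29-fold higher (4.61 to 6.09) with 247 against 1214 counts. The list holds basal keratins and attachment genes already described, so it is no separate evidence. The p63 binding data of the series were not used here.

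Further genes among the 25 lowest belong to no list, apart from GPNMB of the melanocyte and neural crest list. EFEMP1, a matrix glycoprotein, had 14338 against 34 counts, 392-fold lower (280.5 to 566). ZBTB7C, a zinc finger repressor, had 28993 against 79, 341-fold lower (274 to 431). GDA, guanine deaminase, had 2737 against 1 and ARHGDIB, a GTPase regulator of blood cells, 3415 against 4. GPNMB, a glycoprotein known from pigment cells and macrophages, had 7576 against 16. These 5 genes were well measured in the control and had 79 counts or fewer in the other library.

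Genes of epithelial polarity and junctions were lower too, and not only those of squamous cells. Of 45 listed genes 21 have a row, all at the floor. Of these 21, 19 were lower and none was higher, with a median log2 ratio of -3.25. FXYD3, a regulator of the sodium pump, had 6175 against 4 counts, 1435-fold lower (560.4 to 5270). ESRP1, the splicing factor that sets epithelial exon use, had 902 against 0, at least 279.6-fold lower, and all 4 of its rows had 0 or 1 count. SPINT2, a protease inhibitor, had 7421 against 87, and TJP3, a tight junction scaffold, 1061 against 28. OCLN, occludin, went the other way with 245 against 344 counts (0.57). The claudins, strand proteins of tight junctions, differed in both directions: of 8 at the floor 4 were higher and 3 lower (median 0.91, and 2 and 3 of 7 with TMM scaling). CLDN7 had 2367 against 9 counts, CLDN15 101 against 397 and CLDN12 115 against 345.

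Transcript rows were also compared within each gene. Rows of 1 gene share reads and how reads were divided among them is not known, so like ratios do not show that splice forms changed together. Of 2118 genes with at least 2 transcript rows of 50 counts, 1 had rows at least 2-fold apart in both directions. It was EPB41L5, a membrane-skeleton gene with a place in epithelial shape, whose rows had 96 against 345, 160 against 40 and 154 against 51 counts. FGFR2 and FGFR1, receptors of fibroblast growth factors with epithelial and mesenchymal splice forms, have several rows each. The 8 FGFR2 rows had log2 ratios from -2.77 to -1.89 and the 5 FGFR1 rows from 2.10 to 2.56.

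Surface and secreted families of stratified epithelia followed the keratins. All 5 kallikreins, serine proteases of shedding skin, were lower. KLK10 had 2926 against 4 counts and KLK11 2301 against 2, and the summed level of the 5 was 519 CPM in the control against 0.796 CPM. Of 5 clade B serpins 4 were lower, SERPINB2, which blocks plasminogen activators, with 1708 against 0 counts. Of 5 matrix metalloproteases 3 were lower, MMP28 with 403 and MMP13 with 266 counts against 0. MMP2, the gelatinase of stromal cells, had 61 against 72.

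Annexins, calcium-dependent membrane binders, stood on both sides. Of 10 annexins 8 were lower, ANXA1 with 49549 against 187 counts, 246-fold lower (213 to 286), and ANXA2 with 13385 against 926. ANXA5 was close to equal at 6464 against 7270 counts (0.27). ANXA6 was 53.2-fold higher (42.1 to 68.3) with 71 against 3515. ANXA8 and ANXA8L1 are near-identical copies, so their rows can share reads.

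**Figure D2:**
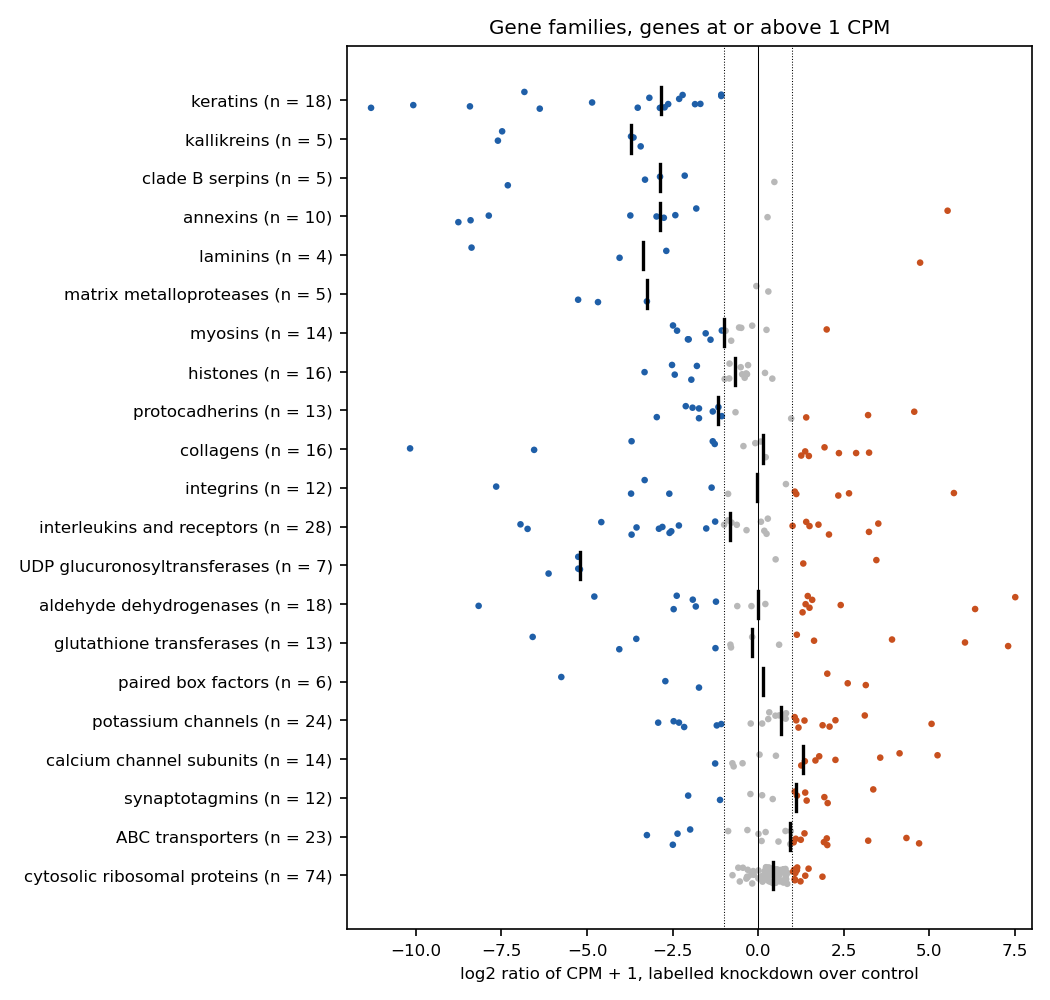
Each point is 1 gene at or above 1 CPM, placed by its log2 ratio of CPM plus 1 (labelled knockdown over control), in 21 gene families; orange is at least 2-fold higher, blue at least 2-fold lower, grey under 2-fold, and the black bar is the family median. Keratins and kallikreins lie wholly on the lower side, annexins and laminins each have 1 gene far on the higher side, and ribosomal protein genes stay near the middle.

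Several genes that sense microbes and start inflammation were at or near 0 in the library labelled knockdown. IL18, an interleukin stored by keratinocytes, had 1141 against 0 counts, at least 354-fold lower. CASP1, the protease that cuts it, had 615 against 2, and CASP4, which detects bacterial lipid, 749 against 0. GSDMD, the pore that they open, had 831 against 1 and MYD88, the adaptor of Toll-like receptors, 221 against 3. Over the whole innate list 12 of 21 genes were lower and 2 higher, with a median of -2.29. The transcription factors beneath them were not lower: RELA had 388 against 434 counts and NFKB2 314 against 866 (1.54).

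Antigen presentation genes differed in both directions. Of 8 HLA genes at the floor 3 were higher, 2 lower and 3 under 2-fold, with a median of 0.03 (-0.23 with TMM scaling). Over all genes at the floor 28.2% were higher and 20.6% lower. Of 7 class I pathway genes 5 were lower, HLA-F with 679 against 228 counts, 2.77-fold lower (2.38 to 3.23), while HLA-C had 4654 against 3539 (-0.29). The peptide trimmer ERAP1 had 1418 against 140 counts and the transporter TAP1 1989 against 863. HLA-DQB1 and HLA-DPA1, chains of class II molecules, had 0 against 255 and 0 against 103 counts, at least 91.4-fold and 36.9-fold higher. HLA-DRB5 had 0 against 36. HLA-DMA was under 2-fold with 59 against 73 counts (0.36), and CD74, the invariant chain, was low in both libraries with 13 against 3. HLA rows differ between people and between copies, and reads can fail to map to the reference allele.

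**Figure D3:**
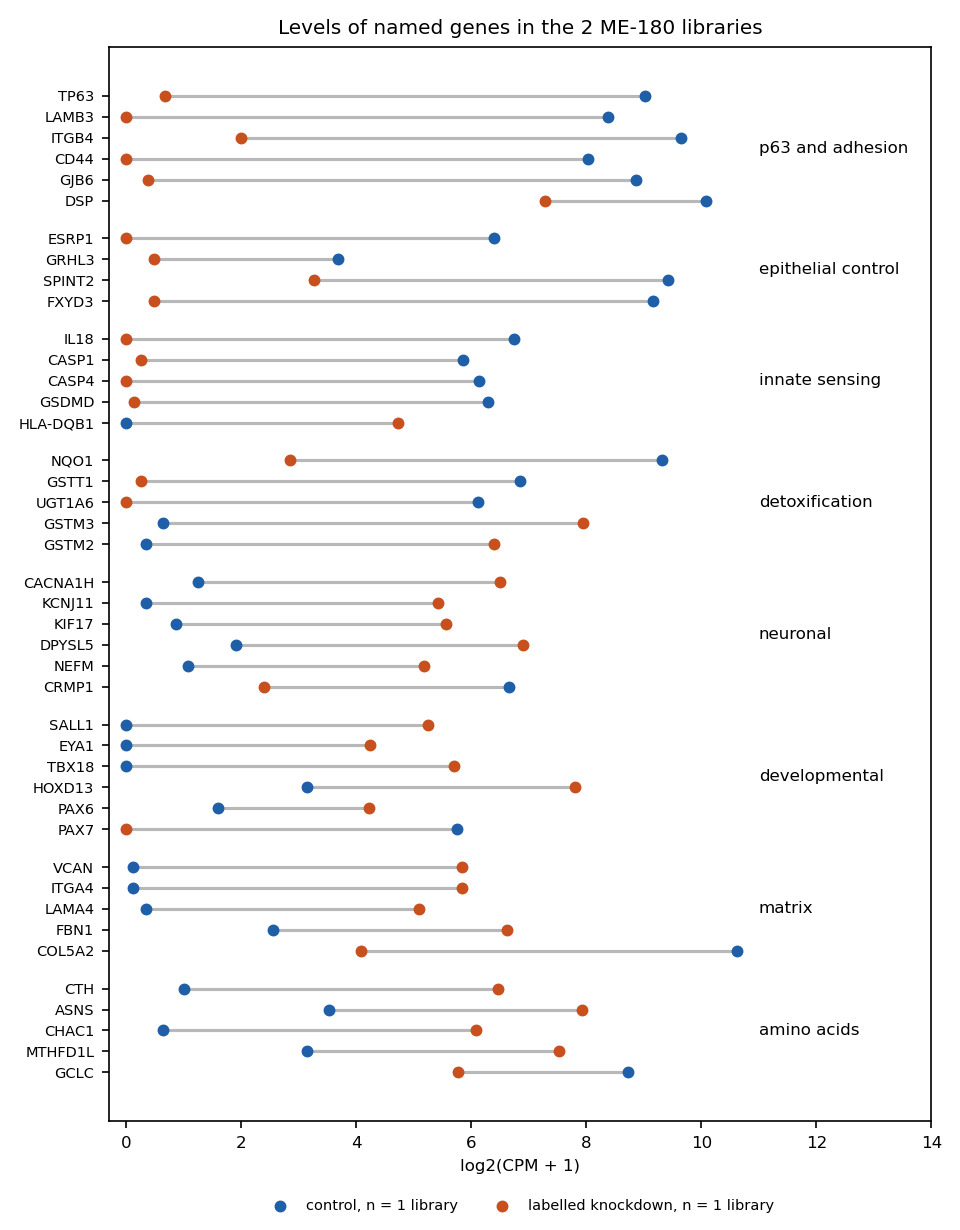
Levels of 42 named genes as log2(CPM + 1) on the x axis, with 1 row per gene, a blue point for the control library and an orange point for the library labelled knockdown, joined by a grey line. Adhesion, epithelial and innate sensing genes have the orange point to the left of the blue one, many at or near 0, except HLA-DQB1, and neuronal, developmental and matrix genes mostly the reverse, with CRMP1, PAX7 and COL5A2 as exceptions.

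Detoxification genes differed in both directions, often within 1 family. NQO1, a quinone reductase under control of NRF2, had 6852 against 62 counts, 103-fold lower (80.1 to 134). UGT1A6, which adds glucuronic acid to drugs, had 742 against 0, and the 4 UGT1A genes with a row, which share exons, were all at 0. CYP4F11, a fatty acid hydroxylase, had 748 against 0 and AKR1C2, a steroid reductase, 224 against 0. Within the glutathione transferases, GSTT1 had 1235 against 2 and GSTT2 169 against 0. The neighbouring GSTM1 and GSTM2 had 3 against 183 and 3 against 836 counts, and reads of these copies can be shared. GSTP1 stayed the most abundant transferase in both libraries, with 44658 against 17486 counts. The aldehyde dehydrogenases, with 8 of 18 genes higher and 7 lower, had a median of 0.01: ALDH3A1 had 10815 against 25 counts and ALDH1A3 10137 against 332, while ALDH1A2, which makes retinoic acid, had 1 against 878.

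Among the higher genes were some of several lineages, beside lower genes of the same lists. Of 31 neuronal and neuroendocrine genes at the floor 14 were higher and 8 lower (median 0.71, and 12 and 9 with TMM scaling). DPYSL5, a protein of growing axons, had 30 against 1191 counts, 42.7-fold higher (29.7 to 63.6), and NEFM, a neurofilament, 12 against 353. Their relatives went the other way: CRMP1 had 1086 against 43 and DPYSL3 215 against 7. The synaptic membrane protein SNAP25 had 31 against 0 counts and TH, which makes catecholamines, 62 against 0. In the same list KIF1A had 1 against 1055 counts and SYT1 3 against 122.

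Channel, receptor and release genes differed in both directions. Of 14 calcium channel subunits 8 were higher and 1 lower (median 1.31, and 7 and 2 with TMM scaling), CACNA1H with 15 against 897 counts, 64.3-fold higher (38.8 to 115). KCNJ11 and ABCC8 encode the pore and the sulfonylurea receptor of the same potassium channel and are neighbours in the genome. They had 3 against 420 and 1 against 211 counts. Of 24 potassium channel genes 9 were higher and 6 lower (median 0.68, and 7 and 6 with TMM scaling). Over all genes at the floor 28.2% were higher and 20.6% lower, so counts in both directions are not particular to these families. Of 6 GABA receptor genes 2 were higher and 4 lower, with a median of -1.37. Of 12 synaptotagmins and their relatives, sensors of calcium in vesicle release, 7 were higher and 2 lower (5 and 2 with TMM scaling). KIF17, a kinesin of dendrites, had 9 against 466 counts, 55.7-fold higher (29.1 to 122.5). Among the 25 highest genes were RIMS4, a vesicle release protein (10 against 1188), APBA2, a synaptic adaptor (0 against 501), TENM1, a teneurin (0 against 560), and ADRA2C, an adrenergic receptor (5 against 949).

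Kidney-lineage genes had the highest median of the identity lists with at least 5 genes. Of 18 nephric genes 11 were higher and 2 lower, with a median of 1.53 against 0.28 over all genes. SALL1 and EYA1, regulators of the early kidney, had 0 against 371 and 0 against 180 counts, at least 133-fold and 64.5-fold higher. EMX2 had 8 against 154 counts, WT1 2 against 66 and PAX2 3 against 42. PAX8, which acts with PAX2, went the other way with 67 against 1, CDH16, a cadherin of the tubule, had 11 against 0, and CUBN, a receptor of the proximal tubule, 1 against 17.

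Other developmental regulators differed in both directions. TBX18, a T-box factor of ureter and heart mesenchyme, had 0 against 513 counts, and EBF3 6 against 757. HOXD13, a factor of the most distal limb and urogenital tract, had 85 against 2237, 28.3-fold higher (22.8 to 35.6), whereas HOXC12 had 127 against 0. Within the paired box family PAX6 had 22 against 177 counts and PAX3 1 against 87, and PAX7 had 571 against 0. CDX2, an intestinal factor, had 117 against 1014. Of 14 pluripotency, germ cell and oncofetal genes at the floor 6 were higher and 3 lower (median -0.20, and 5 and 4 with TMM scaling). Of the fetal RNA-binding genes IGF2BP1, a target of let-7, had 627 against 4019 counts, 6.89-fold higher (6.34 to 7.51), and TRIM71, another one, 0 against 49. MEST, an imprinted gene, had 177 to 187 counts over its 3 rows against 0 in each.

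Matrix and adhesion genes of mesenchymal cells were partly higher. Of 15 such genes 7 were higher and 3 lower (median 0.79). VCAN, a large proteoglycan, had 1 against 562 counts and ITGA4, an integrin of migrating cells, 1 against 568. LAMA4, a laminin chain of vessels and muscle, had 3 against 331, 119-fold higher (40.2 to 578), while the epithelial chain LAMA3 had 1910 against 268. FBN1, fibrillin, had 53 against 984, and COL3A1 9 against 164. COL5A2, a fibrillar collagen, was 99.2-fold lower (84.9 to 117) with 17062 against 160, and COL1A1 had 1373 against 524. The repressors of epithelial genes ZEB1 and ZEB2 had 1 against 179 and 1 against 223 counts.

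Markers of other lineages had no common direction. Of 7 endothelial genes 3 were higher and 3 lower: FLT1 had 0 against 197 counts and VWF 146 against 7, and CDH5, the endothelial cadherin, had 1 and 0. Of 12 haematopoietic genes 5 were higher and 2 lower, the macrophage marker CD68 with 544 against 38 counts and CD3E of T cells with 2 and 0. Of 9 hepatic genes 4 were higher and 3 lower (4 and 4 with TMM scaling), with ALB at 0 and 9 counts. Of 9 muscle genes 3 were higher and 4 lower, MEF2C with 0 against 98 and myoglobin, MB, with 93 against 0. Summed levels of the endothelial list were 30.4 CPM in the control against 27.6 CPM, and those of the haematopoietic list 148 against 89.7 CPM. The part of other cells in the comparison was not tested.

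**Figure D4:**
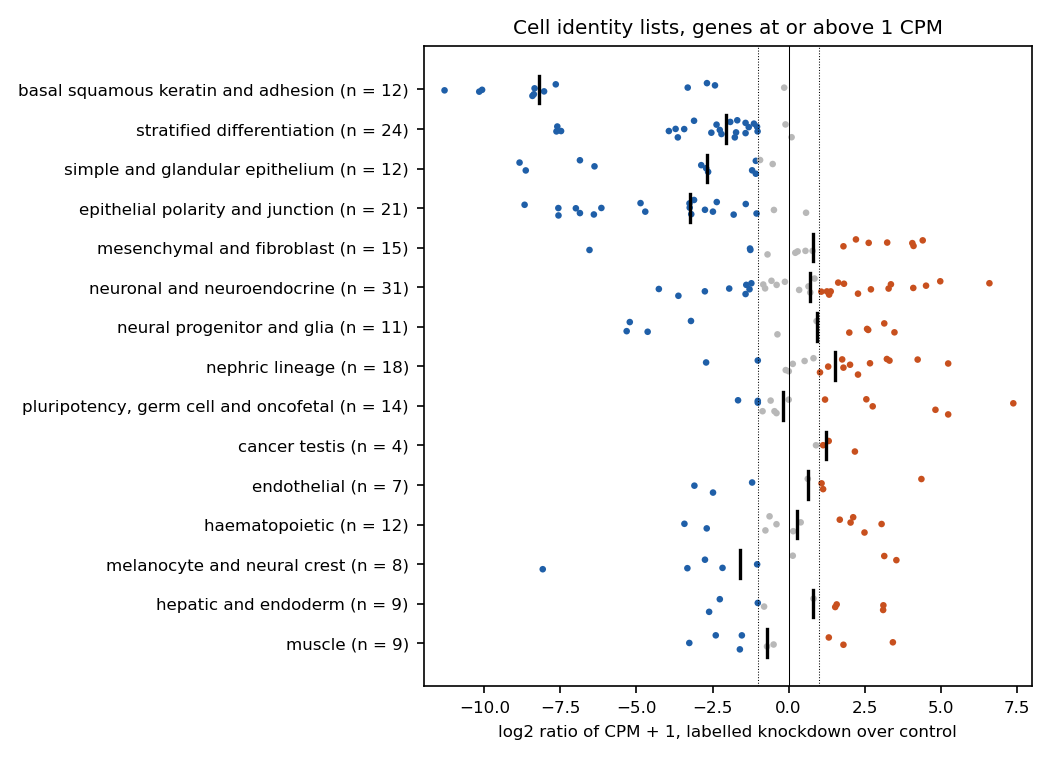
Log2 ratios of CPM plus 1 (labelled knockdown over control) of the genes at or above 1 CPM in 15 cell identity lists, 1 point per gene, with orange for at least 2-fold higher, blue for at least 2-fold lower, grey for less, and a black bar at the median. The 4 epithelial lists have no orange point, and each other list with 5 or more genes has points on both sides.

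Genes of amino acid handling were more often higher. Of 17 amino acid response genes 11 were higher and 3 lower (median 1.40, and 9 and 4 with TMM scaling). ASNS, asparagine synthetase, had 114 against 2441 counts, 23.0-fold higher (19.1 to 28.0), CHAC1, which breaks down glutathione, 6 against 672, and GPT2, an alanine transaminase, 237 against 2124. CTH, the enzyme after CBS in making cysteine from homocysteine, had 11 against 879 counts, and MTHFD1L of mitochondrial folate metabolism 85 against 1852. Other steps went the other way, with GCLC, the first enzyme of glutathione synthesis, at 4582 against 541 and the transporter SLC1A4 at 3914 against 430. SLC43A1, a carrier of large neutral amino acids, had 9 against 1003.

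Most genes of proliferation differed little. Of 15 proliferation genes 13 were under 2-fold (11 with TMM scaling), with a median of 0.00: MKI67 had 5616 against 3175 counts and CCNA2 3345 against 4227. TYMS, thymidylate synthase, was 2.75-fold higher (2.60 to 2.91) and TOP2A, a topoisomerase, 2.54-fold lower (2.49 to 2.60). Of 10 p53 targets 5 were higher and 2 lower (5 and 3 with TMM scaling). Among them CDKN1A, an inhibitor of the cell cycle, had 2514 against 835 counts and BBC3, an inducer of cell death, 34 against 291. CDKN2A, an inhibitor of cyclin-dependent kinases, had 1714 against 3906.

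Most members of the housekeeping families were under 2-fold, with single genes far from that. Of 74 cytosolic ribosomal protein genes 63 were under 2-fold and 11 higher (3 higher and 1 lower with TMM scaling), and together they took 20.9% of the control's counts against 28.3% of the other library's. None of 11 heterogeneous ribonucleoprotein genes passed 2-fold. GAPDH had 106169 against 41370 counts (-1.25) and ENO1 44977 against 41418 (-0.01). PSMD5, a chaperone of proteasome assembly, had 1413 against 5 counts, 263-fold lower (112 to 811). DECR1, an enzyme of mitochondrial fat oxidation, had 2151 against 4, 500-fold lower (195 to 1837). Each of these 2 genes has 1 transcript row, so other transcripts were not measured.

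Genes next to each other in the order of measured genes tended to share their direction. The next gene here is the next one at the floor of 1 CPM, so genes in between can be skipped. In the gene order of GRCh38.p14, 38.7% of higher genes were followed by a higher gene, against 28.1% over all measured genes, and 31.9% of lower genes by a lower one, against 20.6%. There were 42 runs of at least 5 higher genes and 20 of lower ones, the longest with 12 and 16 genes. The longest lower run was the epidermal differentiation cluster from C2CD4D to S100A7. It held late envelope genes such as IVL (52 against 0 counts) and CRNN (41 against 0), most of them low in the control. The next was the type I keratin cluster, with 13 genes from KRT24 to HAP1. Another lower run, BCL6, LPP, TP63, LEPREL1, CLDN16 and IL1RAP, surrounds TP63 itself. The GSTM genes stood in a higher run of 6 from GNAT2 to CSF1. The longest higher run, from DNAH14 to IBA57, held genes of unlike function.

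Promoters of lower genes were poorer in CG pairs, as those printed for KRT5 and TP63 were. RefSeq promoters of 300 bases, from 250 before to 50 after the start, were matched for 1127 of 1400 lower, 1569 of 1914 higher and 2874 of 3469 genes under 2-fold. The median number of CG pairs was 16 for lower genes (quartiles 6 and 29), 25 for higher genes (16 and 34) and 26 for the rest (17 and 33). The motif TGANTCA, bound by AP-1 factors and the same on both strands, was found in 10.4% of promoters of lower genes, in 4.21% of higher ones, in 4.42% of the rest and in 7.76% of all promoters kept. TATAAA on either strand was in 11.2%, 6.05%, 5.81% and 11.95% of them, in that order. CAGGTG on either strand, a site of ZEB and SNAI repressors, was in 24.7%, 18.1%, 19.5% and 20.6%. A pair of p53 family half-site cores was in 3.99%, 4.14%, 3.44% and 4.86%. In all, 10 motifs were searched, chosen after the calls were known. These shares follow base composition as well, and a match is not a bound site.

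The 2 genes with the lowest ratios whose 250 bases before the start hold TGANTCA were GPNMB and SERPINB2, shown with the motif in capitals.
GPNMB, chr7:23246525-23246774, plus strand: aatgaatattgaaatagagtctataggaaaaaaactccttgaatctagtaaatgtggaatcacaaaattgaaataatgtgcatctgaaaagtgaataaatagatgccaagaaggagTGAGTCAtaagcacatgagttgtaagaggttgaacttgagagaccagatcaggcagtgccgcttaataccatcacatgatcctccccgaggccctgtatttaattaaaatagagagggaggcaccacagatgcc
SERPINB2, chr18:63887455-63887704, plus strand: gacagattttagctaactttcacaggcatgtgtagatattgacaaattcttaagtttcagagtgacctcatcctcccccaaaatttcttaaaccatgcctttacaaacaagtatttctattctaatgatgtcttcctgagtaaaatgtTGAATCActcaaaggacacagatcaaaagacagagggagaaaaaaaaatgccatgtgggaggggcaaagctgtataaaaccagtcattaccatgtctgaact
Both stretches are poor in CG pairs, with 2 before GPNMB and 0 before SERPINB2, and both genes were at or near 0 in the library labelled knockdown.

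The genes on only in the library labelled knockdown were set beside SiHa, another cervical carcinoma line of the series, with its vector library. Of the 109 genes with at least 100 counts there and 3 or fewer in the ME-180 control, 99 have the same transcript in the SiHa table. In the SiHa vector library 84 of these 99 reached 1 CPM. The share of all measured genes that did so was not counted, so 84 of 99 cannot be called many or few. The SiHa level of the 99 genes was a median 0.123 of the level in the library labelled knockdown, with quartiles of 0.0759 and 0.187. NFATC4, for example, had 66.9 CPM there and 7.46 CPM in SiHa, and SALL1 36.9 and 5.98 CPM. The 149 matched genes on only in the ME-180 control were wider, with a median ratio of 0.0793 to that control and quartiles of 0.00567 and 0.362. In the SiHa vector library 88 of the 149 reached 1 CPM. Of the 149, KLK11 had 1 count in the SiHa vector library and was below 1 CPM, while CASP4 had 621 and GSDMD 2859. The tables were made separately, so levels across them are set side by side without a scaling of their own.

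**Figure D5:**
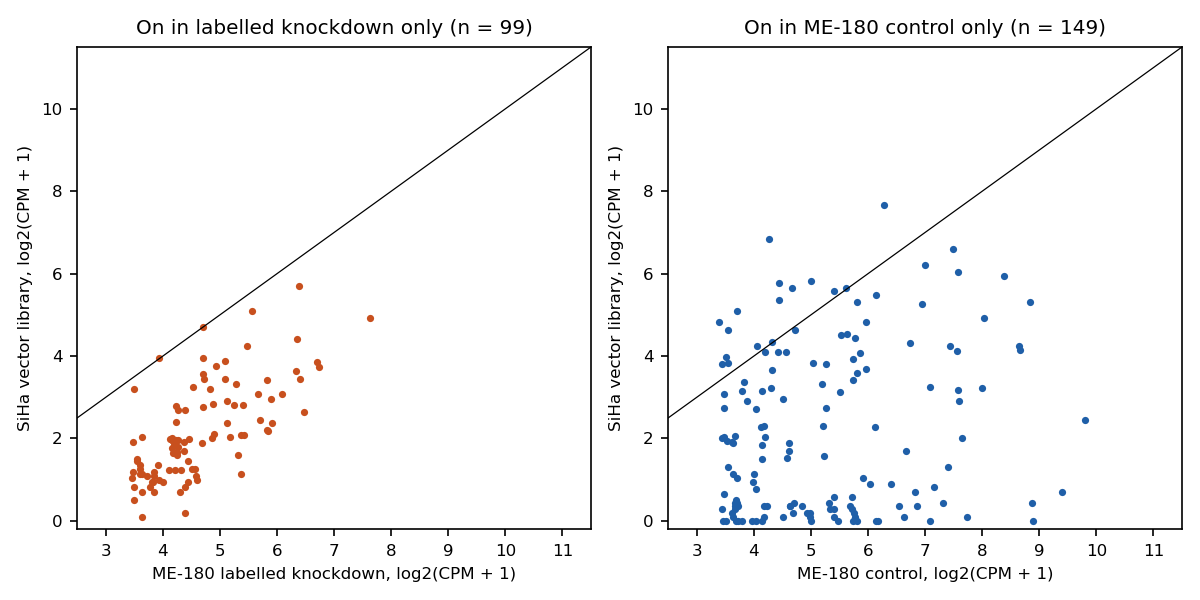
Level in the SiHa vector library (y axis) against the level in the ME-180 library where the gene was on (x axis), both as log2(CPM + 1), for 99 genes on only in the library labelled knockdown (left) and 149 on only in the ME-180 control (right); the line marks equal levels. The left points run in a band below the line, around the median ratio of 0.123, and the right points spread from 0 to above the line.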

How the data were processed

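The authors deposited whole-number counts per RefSeq transcript for each RNA experiment, as the file headers and values show. RNA was isolated by TRIzol, per the labels' protocols. Per the submitters' processing notes, TopHat, Cufflinks, DESeq2 and the build hg19 were used, with no roles given; no source used here gives the counting method or strand setting. The authors' deposited fold changes, p-values and peaks were not used.

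Groups came from titles and characteristics. Counts were divided by column totals (CPM), each gene was represented by the row with the highest summed CPM, and log2 ratios of CPM plus 1 were taken. For 32 rows with a date in place of a name, RefSeq identifiers gave the name. A gene was called at 2-fold with at least 1 CPM in a library. Intervals of ratios are conditional binomial at 95%, and counts of 0 were set to 3 per library for bounds (0.278 CPM in the control, 0.299 CPM in the library labelled knockdown). No test was made, since there is 1 library per group.

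The genes, 37 lists and 62 families were chosen with earlier results of these data known. Named genes were TP63 and the markers, the 25 highest and 25 lowest of those with 100 counts outside small RNA genes and unnamed loci, the 15 most abundant per library, and, from each list, up to 5 genes of 20 counts with the largest ratio and up to 2 of the most abundant. Every p53 family member and genes with transcripts in opposite directions were added, and other genes were named after their values were seen. Some genes that this rule names are not reported here. List symbols without a row were matched through RefSeq identifiers. Python 3.11.15, pandas 2.3.3, scipy 1.17.1 and edgeR 4.0.16 (TMM only) were used, and the call rule was tested on simulated data. Alternatives covered the pseudocount, the floor, scaling, the choice of transcript row and the fold.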

Additional observations from a re-analysis of the deposited data

How the results depend on the processing

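The pseudocount and the fold moved the counts most. With a pseudocount of 5 CPM 1272 genes were at least 2-fold higher and 918 lower, and at 4-fold 598 and 671. At 500 counts in place of 100, 16 genes were on only in the library labelled knockdown and 58 only in the control. The other settings kept each count within 1.5 times, with 1461 to 2092 higher and 1026 to 1657 lower genes, and scaling by the median ratio put 47.5% of those past 2-fold on the higher side. Of 86 medians of lists and families, 31 moved by at least 0.5 with a pseudocount of 5 CPM, 26 with 0.1 CPM, 29 with no floor, 28 with counts of 0 set to 3, 6 with summed rows and 2 with TMM. The keratin median of -2.85 became -5.90 with 0.1 CPM and -1.51 with 5 CPM, and the nephric median of 1.53 became 0.55 with 5 CPM and 0.91 with no floor. With no floor on low genes, 2 medians past 2-fold changed sign: the melanocyte and neural crest list to 0.14 and the UDP glucuronosyltransferases to 0.0092. Of 52 single genes none crossed the 2-fold line, except 1 with a pseudocount of 5 CPM. No paired analysis was possible because each group has 1 library. The ratios have no replicate error, low genes rest on few counts, and genes without a row were not measured.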

Other observations

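Of the 109 genes on only in the library labelled knockdown, 69 of the 99 with a SiHa row had 0.05 to 0.25 of their ME-180 level in the SiHa vector library, and 58 did in the SiHa library labelled overexpression, where the median ratio was 0.0734 against 0.123 with the vector. For the genes on only in the ME-180 control these counts were 31 and 28 of 149, with median ratios of 0.0793 and 0.0918. The range of 0.05 to 0.25 holds both quartiles of the 99 genes with the vector. Their count within it is thus no separate evidence. Across the 99 genes, which are not replicates and share their libraries, Pearson's r of log2(CPM + 1) of the library labelled knockdown with that of SiHa vector cells was 0.68. Across the 149 genes the same measure for the ME-180 control was 0.18. Each set was chosen by its level in the same ME-180 library that entered r. A value over all shared genes was not taken, so no conclusion is drawn from the difference.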
